A study of Homo sapiens with 2 samples.

Results

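A set of 10 long noncoding RNAs that are kept in the nucleus, imprinted, or host small nucleolar RNAs was followed in the luminal A breast cancer line T47D, a human cell line, with and without a short hairpin against RON, the receptor tyrosine kinase encoded by MST1R. The genes were chosen by name (MALAT1, NEAT1, TUG1, H19, MEG3, GAS5, SNHG1, SNHG5, SNHG7 and SNHG8), and all 10 were found among the 25240 genes of the tables, as 19 of 37839 transcripts. One library came from cells with the RON-targeting hairpin (shRON) and the other from cells with a non-targeting hairpin (shNT). Both kinds of cells were transduced, selected in 5 ug/mL puromycin, kept in 1 ug/mL, and grown in high-glucose DMEM with 10% serum. The labels do not give the hairpin sequences, whether a clone or a pool was used, or a parental line without a hairpin, and the name of the control table calls its cells wild type while its label gives the non-targeting hairpin. With 1 library in each group there is no replicate check, so differences are described by size and no p-value is given.

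Long noncoding RNAs act without being translated. NEAT1 is the RNA scaffold of paraspeckles, nuclear bodies built on it by RNA-binding proteins, and MALAT1 collects in nuclear speckles beside splicing factors. H19 and MEG3 are imprinted and expressed from the maternal chromosome, H19 most strongly in fetal tissues. The host genes carry small nucleolar RNAs (snoRNAs) in their introns. The snoRNAs guide methylation or pseudouridylation of ribosomal RNA, while the spliced host transcript is exported, often begins with the run of pyrimidines known as a 5′ TOP, and is degraded through nonsense-mediated decay.

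The libraries held about 11100000 estimated fragments in shRON and 11700000 in shNT. MST1R, the target, stood at 9.10 FPKM (fragments per kilobase of transcript, scaled to library size) in shRON and 12.1 FPKM in shNT, a ratio of 0.749. All 8 luminal markers examined were measured, with a median log2 ratio of -0.39. PGR (35.1 FPKM in shRON and 76.7 in shNT) and ESR1 (23.7 and 36.7) were at least 1.5-fold lower and 0 of the 8 higher. Over all measured genes, 8.84% were lower and 9.94% higher by that size. GATA3 (log2 ratio 0.27), EPCAM (0.05) and FOXA1 (0.01) were the 3 of the 8 above 0, with 5 below. The 3 basal markers, KRT5, KRT14 and TP63, stayed under 1 FPKM, at up to 0.698 FPKM in shRON and 0.202 in shNT. Of 5 immune markers, 4 (PTPRC, CD3E, LYZ, TYROBP) had a value of 0 in each library and CD68 was at 5.84 FPKM in shRON and 1.37 in shNT. Of 5 fibroblast markers, COL1A1 was at 4.27 and 3.95 FPKM, COL3A1 at 1.53 and 0.0103 FPKM, and COL1A2, DCN and LUM at or under 0.125 FPKM. Of 4 endothelial markers, ENG was at 7.65 and 7.21 FPKM, CDH5 at 0.0141 and 0.0137 FPKM, and PECAM1 and VWF were listed at 0. The part of these markers in the results was not tested. Genes that reached 1 FPKM in at least 1 library, small RNA genes aside, numbered 12482. Log2 ratios set FPKM + 1 of the shRON library over that of the shNT library, which understates the difference of genes with low values, and the median over these genes was 0.04. Intervals beside ratios of FPKM are 95% Clopper-Pearson intervals on fragment numbers estimated from the deposited coverage. They are approximate, cover counting error only and say nothing of the difference between cultures. In bulk RNA, fewer cells that express a gene and less RNA in each cell cannot be told apart.

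Of the 10 genes, 9 were measured at 1 FPKM or more, and their log2 ratios differed in sign by kind. The 4 without hosted snoRNAs (H19, NEAT1, TUG1 and MALAT1) had log2 ratios above 0, and the 5 snoRNA hosts had log2 ratios below 0. That split rests on small values at its edge, MALAT1 at 0.05 and GAS5 at -0.14, and with regional medians subtracted these were -0.07 and 0.00051, so it no longer held. At a size of 1.5-fold, 1 of the 9 was higher, H19, and 1 was lower, SNHG1. Over all measured genes 9.94% were higher and 8.84% lower by that size, so the count of members past it is near the background. At 2-fold, H19 alone was higher and 0 were lower, beside 3.32% and 2.17% of all measured genes. Over the 987 measured genes with noncoding transcripts only, the shares were 7.5% higher and 11.3% lower. The median log2 ratio of the 9 was -0.14 and their mean 0.10, which differ in sign because H19 lies far from the rest. Among noncoding genes as a whole the median was -0.04.

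**Figure D1:**
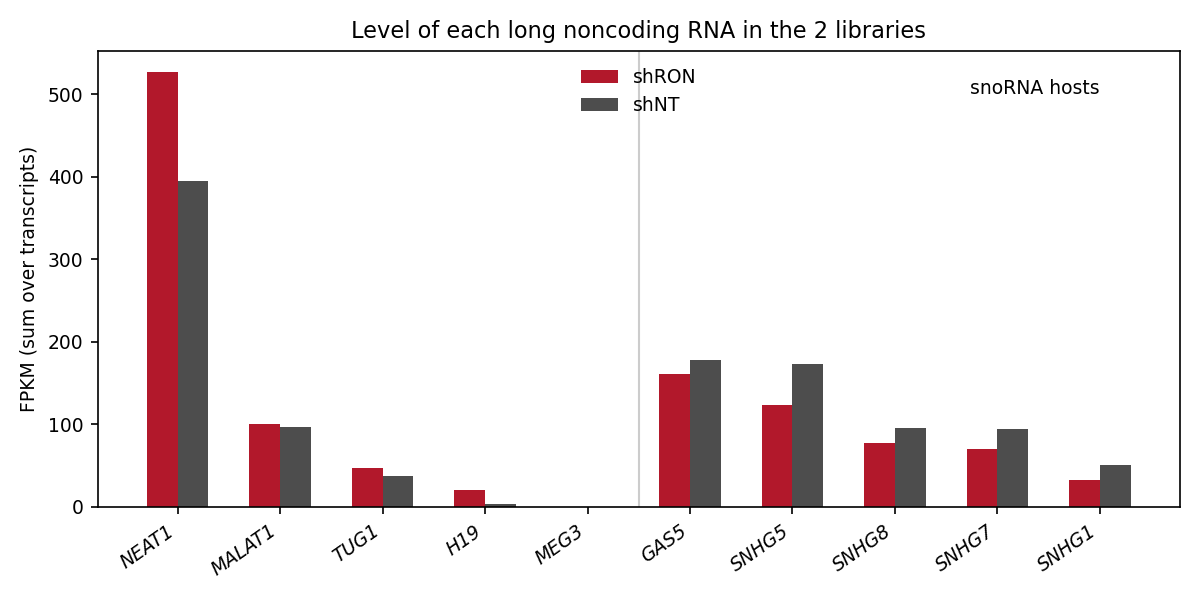
Level of each long noncoding RNA, as FPKM summed over its transcripts (linear axis from 0), in the shRON library (red, left bar) and the shNT library (grey, right bar). NEAT1 was the most abundant, at 526 and 395 FPKM, and the 5 snoRNA hosts on the right were each lower in shRON. With 1 library per group there are no error bars.

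NEAT1 was the most abundant of the 10 in both libraries. It stood at 526 FPKM in shRON and 395 FPKM in shNT, rank 103 and rank 141 among measured genes. The ratio of FPKM was 1.33, with a counting interval of 1.31 to 1.36 from about 27584 and 21351 fragments, and the log2 ratio was 0.41. Of all measured genes, 16.8% had a higher ratio. The table holds 1 unspliced NEAT1 transcript of 3735 bases on the plus strand of chromosome 11 (hg19, 65190269 to 65194003), the length of the short, polyadenylated form. The long form, which is the one required for paraspeckles, begins at the same site, and its reads over this stretch would be counted with the short form, so the level does not separate them.

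MALAT1 lies 71.2 kb from NEAT1 on the same strand (65265233 to 65273940) and is listed as 1 unspliced transcript of 8708 bases. It stood at 99.95 FPKM in shRON and 96.4 FPKM in shNT. The ratio was 1.04 (1.01 to 1.06), with 48.7% of measured genes above it. Between the neighbours, NEAT1 was thus higher in shRON by 33.3% and MALAT1 by 3.68%. The span of a further row, LOC100507645, overlaps the first 2019 bases of MALAT1, and that row was itself abundant, at 283 FPKM in shRON and 258 FPKM in shNT. Its strand was not looked up, since the reference annotation has no gene of that symbol, and how reads were divided between the overlapping rows is uncertain. With its FPKM added to that of MALAT1, the log2 ratio was 0.11 in place of 0.05. That sum gives the shorter row more weight than its reads have. It held about 2507 and 2364 estimated fragments in shRON and shNT, against 12454 and 12430 for MALAT1. Relative to the median of its region, MALAT1 alone was at -0.07. FRMD8, the nearest measured gene on the other side of NEAT1, stood at 19.9 and 15.9 FPKM in shRON and shNT (log2 ratio 0.31).

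TUG1, a spliced RNA found in nucleus and cytoplasm that is broadly expressed, stood at 46.6 FPKM in shRON and 37.7 FPKM in shNT. The ratio was 1.24 (1.18 to 1.29) and the log2 ratio 0.30, with 24.9% of measured genes above it. Relative to the median of its region, which was 0.14, TUG1 was at 0.16. It lies on the plus strand of chromosome 22 (31365634 to 31375381) and has 1 transcript of 7105 bases in the tables. GENCODE 44 now classes TUG1 as protein-coding. MORC2, which starts 1.45 kb away on the minus strand, differed less, at 9.67 and 8.85 FPKM in shRON and shNT (log2 ratio 0.12, counting interval of the ratio 0.974 to 1.23). SMTN, 102 kb to the other side, encodes the smooth-muscle protein smoothelin and stood at 21.3 and 11.6 FPKM (0.82).

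H19 had the largest difference of the 10. It stood at 21.0 FPKM in shRON and 4.11 FPKM in shNT, from about 678 and 139 fragments. The ratio of FPKM was 5.11 (4.25 to 6.18) and the log2 ratio 2.11, and 0.417% of measured genes had a higher one. H19 took rank 3372 in shRON and rank 8842 in shNT. On chromosome 11 it runs along the minus strand (2016406 to 2019065), with 1 transcript of 2308 bases. Its first exon holds the hairpin of miR-675, which is listed at 0 in both libraries with the status LOWDATA. Its mature RNAs are shown because they are the small products of the host that differed most, with the seed (bases 2 to 8) in capitals (RefSeq, GRCh38.p14).
hsa-miR-675-5p: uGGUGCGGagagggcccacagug
hsa-miR-675-3p: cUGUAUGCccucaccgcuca

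The difference at H19 was not shared by the measured genes beside it. MRPL23, a mitochondrial ribosomal protein gene 38.6 kb away, stood at 24.6 FPKM in shRON and 31.2 FPKM in shNT (log2 ratio -0.33). ASCL2, 271 kb to the other side, encodes a transcription factor and stood at 3.69 and 5.06 FPKM (-0.37). IGF2, the paternally expressed partner of H19 that shares its imprinting control region, stayed under 1 FPKM, at 0.475 in shRON and 0.227 in shNT. From about 33 and 16 fragments, the IGF2 ratio was 2.10 (1.12 to 4.09), above 1 as at H19. The median of the 20 nearest measured genes was 0.18, and relative to it H19 was at 1.93.

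**Figure D2:**
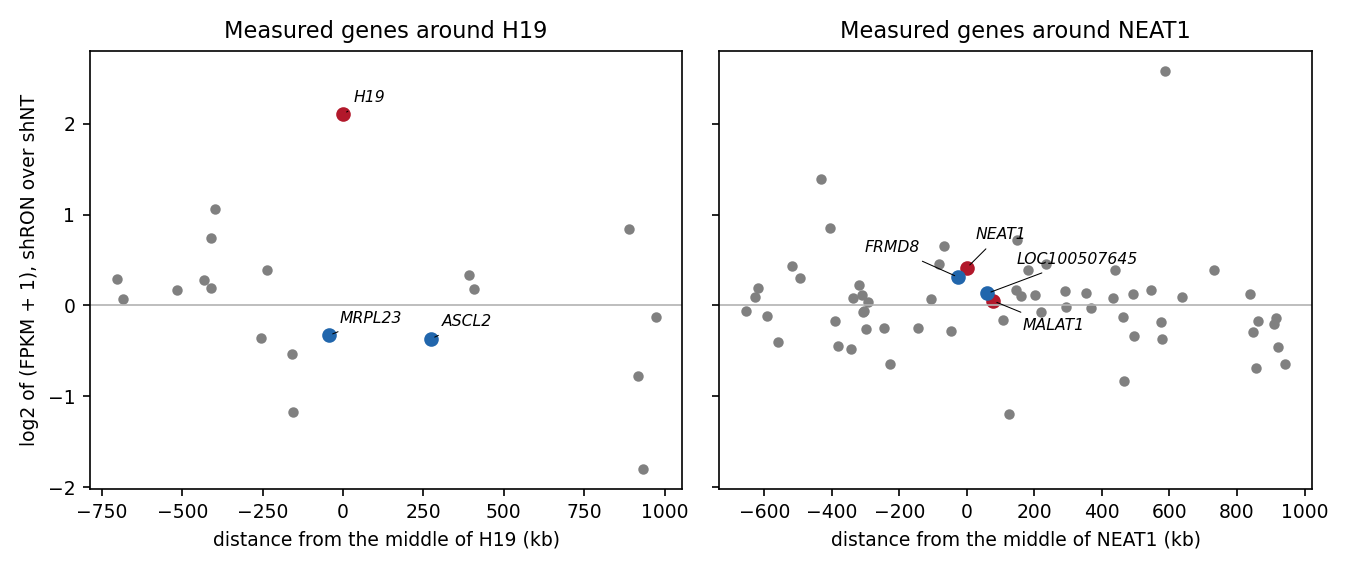
Log2 ratio (shRON over shNT, FPKM + 1) of every measured gene within 1000 kb of H19 (left) and NEAT1 (right), by distance between gene middles in kb. Red points are H19, NEAT1 and MALAT1, and blue points are the named neighbours: H19 stands at 2.11 between MRPL23 (-0.33) and ASCL2 (-0.37), while NEAT1 (0.41) and FRMD8 (0.31) lie close together.

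MEG3, the imprinted RNA of the DLK1 locus on chromosome 14 (101292445 to 101327363, plus strand), was at the limit of detection. Its 6 transcripts summed to 0.0448 FPKM in shRON, about 1.08 estimated fragments, and were listed at 0 in shNT. A count of 0 allows 3 fragments, or up to 0.129 FPKM in shNT, so no difference was detectable at this depth. The 4 other rows inside its span, MIR770 among them, and DLK1, MEG8 and RTL1 of the same locus were listed at 0 in both libraries.

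The 5 snoRNA hosts were each lower in shRON before regional medians were subtracted, by 9.40% to 34.3%. SNHG1 stood at 33.1 FPKM in shRON and 50.3 FPKM in shNT. Its ratio was 0.657 (0.588 to 0.734) and its log2 ratio -0.59, just past the 1.5-fold line, with 8.68% of measured genes lower. It was not past that line with a pseudocount of 5 (-0.54) or with coverage in place of FPKM (-0.57). SNHG5 stood at 124.0 FPKM in shRON and 173 FPKM in shNT, a ratio of 0.718 (0.659 to 0.783), and SNHG7 at 69.8 and 94.8 FPKM, a ratio of 0.736 (0.676 to 0.801). For these RNAs 13.0% and 14.6% of measured genes had a lower ratio.

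SNHG8 and GAS5 differed least. SNHG8 stood at 78.0 FPKM in shRON and 96.0 FPKM in shNT, a ratio of 0.813 (0.725 to 0.911). GAS5, a growth-arrest-associated RNA whose spliced transcript can bind the glucocorticoid receptor, stood at 162 FPKM in shRON and 178 FPKM in shNT, a ratio of 0.906 (0.843 to 0.974). The log2 ratio of GAS5 was -0.14 and so was the median of the 20 measured genes around it, so relative to its region GAS5 was at 0.00051. The other 4 hosts stayed below 0 relative to theirs, between -0.31 for SNHG7 and -0.86 for SNHG1. The median of the 5 hosts was -0.44, against 0.04 over all measured genes and -0.06 over the 2412 measured genes at a mean of 30 FPKM or more, a range that holds all 5. In that range 7.46% of genes were higher and 9.45% lower by 1.5-fold.

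**Figure D3:**
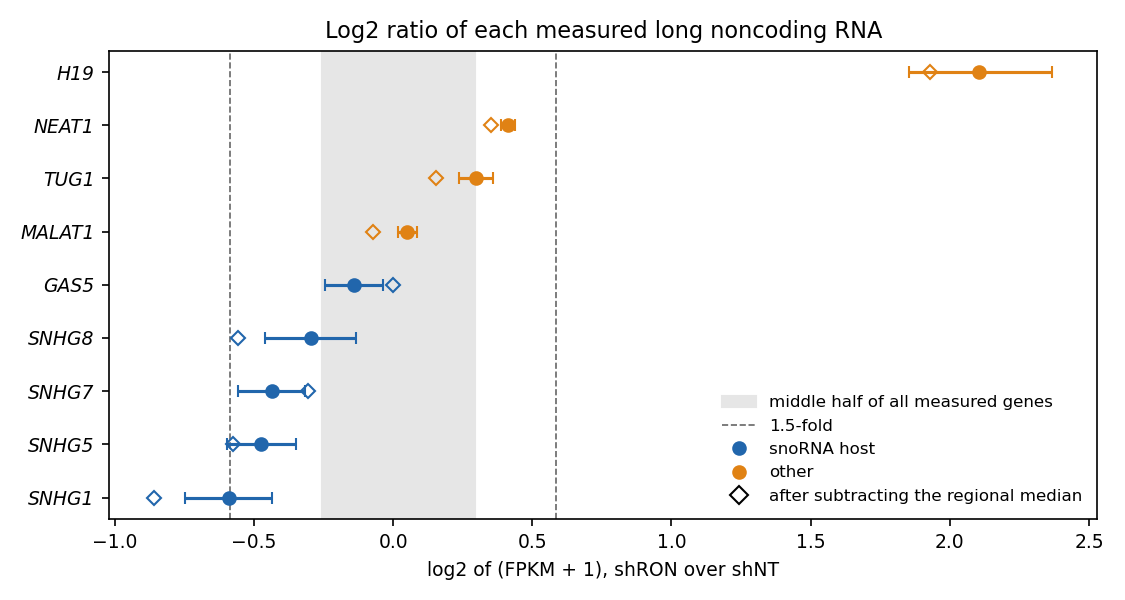
Log2 ratio (shRON over shNT, FPKM + 1) of the 9 measured long noncoding RNAs, with approximate 95% counting intervals as bars and, as open diamonds, the value after the median of the 20 nearest measured genes was subtracted. The grey band spans the quartiles of all measured genes (-0.25 to 0.30) and the dashed lines mark 1.5-fold. The snoRNA hosts (blue) lie at or below -0.14 and the others (orange) at or above 0.05.

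Where a host has more than 1 transcript in the tables, all were lower together. The main SNHG7 transcript of 968 bases took 73.4% of the gene's FPKM in shRON and 73.2% in shNT, and the form of 853 bases took 24.7% in both. Among 3 SNHG8 transcripts, the form of 619 bases took 55.8% in shRON and 52.7% in shNT, the form of 274 bases 31.2% and 31.8%, and the form of 468 bases 13.0% and 15.5%. The transcripts of a gene share reads, so these shares are estimates of the authors' software. FAM69B overlaps SNHG7 by 125 bases and was lower, at 4.49 FPKM in shRON and 9.54 FPKM in shNT (log2 ratio -0.94), and both measured flanking genes, TMEM141 (98.8 and 142 FPKM) and AGPAT2 (36.3 and 47.5 FPKM), were lower too.

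The snoRNAs themselves were not measured. The spans of the hosts hold 23 snoRNA genes of the tables (10 in GAS5, 8 in SNHG1, 2 each in SNHG5 and SNHG7, and 1 in SNHG8), and all were listed at 0 in both libraries, as were 1397 of all 1431 small RNA genes. A value of 0 for such short RNAs says nothing of their level.

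SNHG1 and GAS5 each share a start region with a protein-coding gene on the opposite strand that had a log2 ratio of the other sign. SLC3A2, the heavy chain of amino acid transporters, starts 0.158 kb from the start of SNHG1 and stood at 332 FPKM in shRON and 241 FPKM in shNT. Its ratio was 1.38 (1.33 to 1.42), against 0.657 for SNHG1. ZBTB37, a zinc finger gene that starts 0.368 kb from GAS5, was low, at 2.78 FPKM in shRON and 1.69 FPKM in shNT (ratio 1.65, 1.13 to 2.44). SNHG5 and SNHG8 have no measured gene that close. SYNCRIP, 33.7 kb from SNHG5, stood at 42.9 and 42.2 FPKM (log2 ratio 0.02), and CGA, the next measured gene on the other side at 1407 kb, was at 4.86 FPKM in shRON and listed at 0 in shNT. Next to SNHG8 lie TRAM1L1, 1193 kb away at 4.29 and 2.58 FPKM in shRON and shNT, and LOC729218, 350 kb away at 3.24 and 1.80 FPKM.

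The starts of the 5 hosts were read from GRCh37, the primary assembly of hg19, at the 5′ ends given in the tables, 20 bases before to 30 bases from the first base, which is position 21 of each line. They are shown because a 5′ TOP is the sequence feature for which these hosts are known. Capitals mark a TOP-like run, defined as a C followed by 4 or more bases that are each C or T and beginning within 10 bases of the first base on the gene's strand. Where matches overlap, the one that begins nearest the first base is marked. In SNHG8 the C before the capitals thus also belongs to the run. The windows are chr11:62623331-62623380 (minus) for SNHG1, chr6:86388422-86388471 (minus) for SNHG5, chr9:139622607-139622656 (minus) for SNHG7, chr4:119199897-119199946 (plus) for SNHG8 and chr1:173837096-173837145 (minus) for GAS5.
SNHG1: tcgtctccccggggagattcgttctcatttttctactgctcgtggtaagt
SNHG5: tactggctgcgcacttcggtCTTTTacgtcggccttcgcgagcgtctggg
SNHG7: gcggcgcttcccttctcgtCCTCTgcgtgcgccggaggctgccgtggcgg
SNHG8: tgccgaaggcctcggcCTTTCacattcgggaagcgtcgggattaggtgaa
GAS5: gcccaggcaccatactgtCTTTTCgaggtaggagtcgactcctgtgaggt

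Of the 5 hosts, 4 held such a run, and in SNHG5 it began at the first base itself. SNHG1, the host with the lowest ratio, had none by this definition. Of the other genes MALAT1 and MEG3 held one and NEAT1, H19 and TUG1 did not. The run was common, in 29.9% of the 10070 measured genes whose strand could be looked up, while 3.01% had it at the first base. It was not general among hosts: of other snoRNA-host noncoding RNAs with a start looked up, 2 of 8 held one. Of protein-coding snoRNA hosts and 5′ TOP genes outside the ribosomal proteins, 11 of 25 did. That list mixes hosts with 5′ TOP genes, so the count does not tell how many 5′ TOP genes the definition misses. Genes with and without a run had about the same median log2 ratio, 0.05 in both, and the 303 genes with one at the first base had a median of 0.01. At the RefSeq starts of GRCh38.p14, where 9 of the 10 genes matched, 33.5% of 35116 starts held a run. The current RefSeq start of GAS5 lies farther upstream than that of the tables and held none.

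Other snoRNA-host noncoding RNAs were closer to the bulk of genes. By 1.5-fold, 8.84% of all measured genes were lower and 9.94% higher, and 11.3% and 7.5% of those with noncoding transcripts only. Of 16 listed, 11 have a row and all 11 were measured, with 0 at least 1.5-fold higher, 0 at least 1.5-fold lower and 7 below 0 (median -0.17). The most abundant were C20orf199, the table's name for ZFAS1, at 247 FPKM in shRON and 204 FPKM in shNT (log2 ratio 0.28), and NCRNA00188 at 174 and 245 FPKM (-0.49). Of 26 protein-coding snoRNA hosts and 5′ TOP genes outside the ribosomal proteins, 2 were lower by 1.5-fold and 0 higher (median -0.13). BTF3, which binds nascent chains at the ribosome as part of the nascent polypeptide-associated complex, stood at 219.6 FPKM in shRON and 358 FPKM in shNT (-0.70, median of its region -0.38). The elongation factor gene EEF1B2 stood at 87.4 and 134 FPKM (-0.61). The elongation factor gene EEF1A1, the most abundant, was at 1155 and 1385 FPKM (-0.26), and EEF1G at 1101 and 1143 FPKM (-0.05).

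Proteins that assemble snoRNAs had a median slightly below the 0.04 of all measured genes, and those that degrade host transcripts had one above it. Their counts past 1.5-fold stand beside 8.84% of all measured genes lower and 9.94% higher. Of 15 snoRNA particle proteins, 2 were lower and 0 higher by 1.5-fold (median -0.04). The assembly helicase gene RUVBL1 stood at 20.8 FPKM in shRON and 35.7 FPKM in shNT (-0.75) and the nucleolar phosphoprotein gene NOLC1 at 28.0 and 43.0 FPKM (-0.60), both in regions that were lower as well, with medians of -0.42 and -0.45. The most abundant of the list, NOP10 of the box H/ACA particle, was at 129 and 185 FPKM (-0.52), with NHP2 at 93.7 and 106 FPKM (-0.18). Of 15 factors of nonsense-mediated decay, 1 was lower, RBM8A of the exon junction complex at 22.0 and 37.3 FPKM (-0.74, median of its region -0.31), and 0 were higher, with 10 of 15 above 0 and a median of 0.18. EIF4A3 was at 59.5 and 63.2 FPKM (-0.09) and PNRC2 at 55.7 and 46.7 FPKM (0.25).

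The protein partners of NEAT1 and MALAT1 had medians close to 0. For the counts below, 9.94% of all measured genes were higher by 1.5-fold and 8.84% lower. Of 21 measured paraspeckle proteins out of 22 listed, 0 were higher by 1.5-fold and 1 was lower, NUDT21, a subunit of the cleavage factor that acts in 3′ end formation. It stood at 13.3 FPKM in shRON and 27.8 FPKM in shNT (-1.004), in a region with a median of -0.54. HNRNPA1 at 235 and 272 FPKM (-0.21) and HNRNPF at 195 and 182 FPKM (0.10) were the most abundant by the mean of both libraries, and the list median was -0.02. Of 21 nuclear speckle and SR proteins, 0 were higher and 0 lower by 1.5-fold. Their median of 0.03 and mean of -0.01 differed in sign, and SFRS9 at 146 and 154 FPKM and SFRS5 at 97.8 and 92.6 FPKM were the most abundant by the mean of both libraries.

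Genes listed for the H19, MEG3 and other imprinted loci were spread more widely. Of 29 listed, 27 have a row and 12 were measured, with a median of 0.46. Of the 12, 5 were at least 1.5-fold higher and 2 lower, beside 9.94% and 8.84% of all measured genes. The 5 do not all lie at separate places. PEG10 and SGCE (11.1 FPKM in shRON and 6.25 FPKM in shNT, log2 ratio 0.74) are on chromosome 7, and NDN and SNURF on chromosome 15. CDKN1C was measured only through the shRON library, at 1.30 FPKM in shRON and 0.284 FPKM in shNT, so it had to be higher. PEG10, a retrotransposon-derived gene, stood at 98.7 FPKM in shRON and 17.8 FPKM in shNT, a ratio of 5.54 (5.26 to 5.83). NDN, which encodes necdin, stood at 20.8 and 6.37 FPKM (log2 ratio 1.57), and SNURF at 4.85 and 1.95 FPKM (0.99), from few fragments and sharing its transcript with SNRPN. SNRPN itself was not past 1.5-fold, at 43.9 FPKM in shRON and 30.9 FPKM in shNT (0.50). PHLDA2, 932 kb from H19 between gene middles, restrains placental growth in mice. It was lower, at 7.01 FPKM in shRON and 26.9 FPKM in shNT, a ratio of 0.261 (0.201 to 0.334). The abundant GNAS (582 and 502 FPKM, log2 ratio 0.21) and CD81 (78.3 and 62.0 FPKM, 0.33) differed less. Whether each listed gene, CD81 among them, is imprinted in these cells was not tested.

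Of 30 other long noncoding RNAs listed, 17 have a row and 10 were measured, with 0 higher and 2 lower by 1.5-fold and a median of -0.16. Over the measured genes with noncoding transcripts only, 7.5% were higher and 11.3% lower by that size. CRNDE, first described in colorectal neoplasia, stood at 19.2 FPKM in shRON and 42.5 FPKM in shNT (log2 ratio -1.10), with a regional median of -0.48. DLEU1 stood at 3.03 and 5.48 FPKM (-0.68), a ratio of 0.553 with an interval of 0.359 to 0.840. BCYRN1, a short RNA with repeat-derived sequence whose reads may come from other copies, was the most abundant at 82.4 and 114 FPKM (-0.46).

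**Figure D4:**
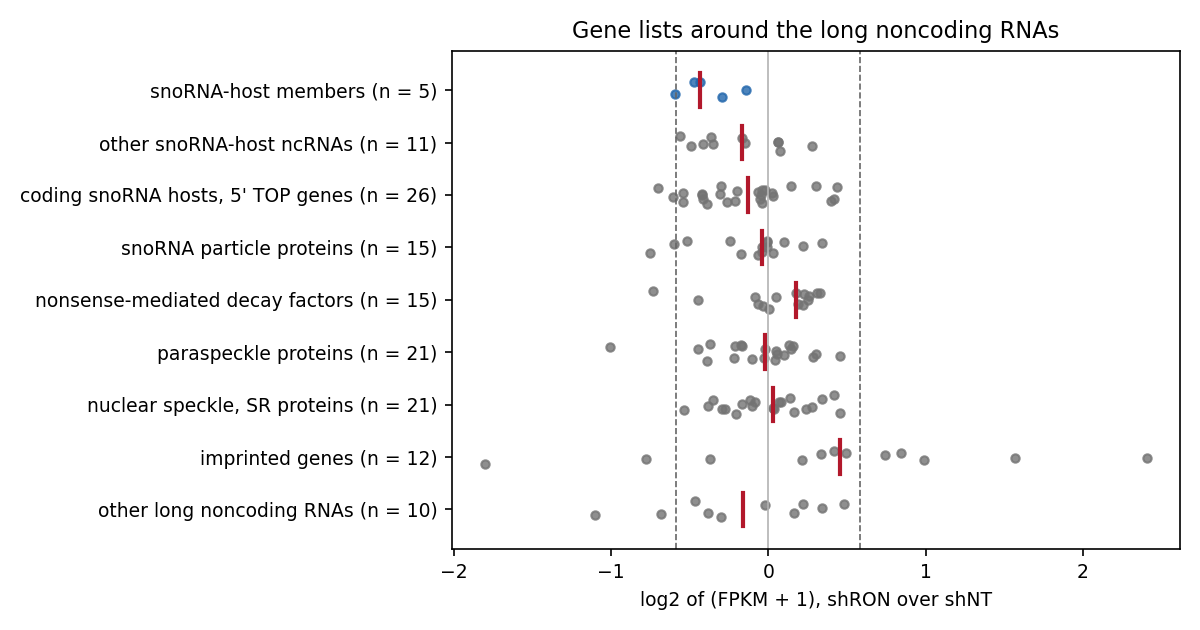
Log2 ratio (shRON over shNT, FPKM + 1) of the 5 snoRNA-host genes of this set (top, blue) and of the measured genes of 8 lists (grey). Each point is a gene, red bars are medians and dashed lines mark 1.5-fold. The host median is -0.44, the other snoRNA-host RNAs lie around -0.17, and the imprinted genes spread from -1.80 to 2.40.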

How the data were processed

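One RNA library each of shRON and shNT T47D cells was analysed, grouped by the treatment label. Total RNA was extracted with TRIZOL and TruSeq RNA libraries were made, per the labels' protocols; no source used here states whether the kit marked strand. The deposited tables have the Cufflinks layout, per the file headers, with build hg19 and DESeq, without a role, named in the submitters' processing notes. FPKM values were computed by the authors, and no scaling between libraries is stated. The deposited coverage signal was read as mean depth per base. FPKM were summed per gene, genes under 1 FPKM in both libraries and small RNA genes (by name or under 200 bases) were left out, and log2 ratios used a pseudocount of 1. Fragments were estimated as coverage times length over 249 bases, the median product of values taken as 1 read pair. Regional medians used 10 measured genes on each side. Named genes were mainly the members, their neighbours and overlapping rows, and in each list the 4 largest differences past 1.5-fold and the 2 most abundant genes. CDKN1C, SGCE and SNRPN were named after their values were seen. Members and lists were chosen with earlier results of these data known. Functions were tested on simulated data. Python 3.11.15, pandas 2.3.3 and SciPy 1.17.1 were used. One neighbouring gene is not reported here.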

Additional observations from a re-analysis of the deposited data

How the results depend on the processing

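No paired analysis was possible because each group has 1 library, and for the same reason no library could be left out. Across 10 alternative settings, H19, NEAT1, TUG1, SNHG1, SNHG5, SNHG7 and SNHG8 kept their sign, H19 between 1.51 and 2.33 and SNHG1 between -0.86 and -0.54. MALAT1 lay between -0.07 and 0.11 and GAS5 between -0.18 and 0.00051. Adding the row that overlaps MALAT1, chosen after seeing the data, gave the 0.11. With a pseudocount of 5, and with coverage in place of FPKM, the members at least 1.5-fold lower numbered 0, as did the snoRNA hosts. The median of the hosts was -0.56 with regional medians subtracted. Over all genes, 1.5-fold higher numbered 797 at 5 FPKM or more and 517 with a pseudocount of 5, against 1241, and 1.5-fold lower 465 with that pseudocount, against 1104. At 2-fold, 695 were higher and 490 lower with a pseudocount of 0.1, 144 and 84 with 5, and 268 higher at 5 FPKM or more, against 414 and 271. The imprinted median was 0.21 without a filter, and its higher genes numbered 3 at 5 FPKM or more and 2 with a pseudocount of 5. Of other snoRNA-host RNAs 1 was lower with ratios centred on the median gene, with the most abundant transcript, with a pseudocount of 0.1 and with regional medians subtracted. The most abundant transcript gave 2 lower decay factors and 2 lower paraspeckle proteins. Regional subtraction gave 0, 0 and 0 lower decay factors, paraspeckle and snoRNA particle proteins, and 1 lower coding host. Coverage and a pseudocount of 5 gave 1 lower particle protein each, and that pseudocount 1 lower other long noncoding RNA. Small counts move easily, and the cause was not tested.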
